A study of Homo sapiens with 6 samples.

Results

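Interferon-stimulated genes are the genes that cells switch on when an interferon binds its receptor. The 58 members described here were taken as a fixed list of gene symbols, from ISG15 and the IFIT, OAS, MX and IFITM families to the factors STAT2, IRF1, IRF2, IRF7 and IRF9, and all 58 were found among the 16551 genes of the table, all protein-coding. The rule that lists them uses no measured value, but the list was chosen with earlier results of these data known. RNA had been sequenced from HaCat cells, a spontaneously immortalised keratinocyte line of human skin, in 3 libraries named si-YTHDF2 and 3 named NC. Names of the form si-YTHDF2 usually stand for a knockdown of that gene by siRNA, and the labels do not spell out NC. The same cell line, Trizol extraction, removal of ribosomal RNA and low-input library kit are stated for both groups, and no interferon or other stimulus is named for either. Whether replicates 1, 2 and 3 were separate cultures is not stated, so each p-value below speaks only of variation among these 6 libraries, part or all of which may be technical.

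Interferons of the alpha, beta and lambda kinds act through JAK1 and TYK2 on a complex that holds STAT2 and IRF9 and binds the interferon-stimulated response element (ISRE) in promoters. Interferon gamma acts through JAK1 and JAK2 on a different element, the gamma-activated site (GAS), and induces IRF1, which in turn binds ISRE-like sites. The products sense viral RNA, degrade it, block its translation or hold virus at membranes, and some of them feed back on the pathway. Keratinocytes respond to these interferons, and interferon-induced transcripts are a known feature of psoriatic skin. YTHDF2 is a cytoplasmic protein that binds N6-methyladenosine in mRNA and brings in the deadenylation machinery, which shortens the life of the bound mRNA.

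Of the 58, 27 were higher in si-YTHDF2, 16 were lower and 15 were not called (edgeR's quasi-likelihood test, adjusted p under 0.05 over all 12264 genes tested). Higher and lower calls covered 46.6% and 27.6% of the members, beside 26.1% and 25.2% of all genes tested. Among the higher members were the 4 IFIT genes, MX1, MX2, RSAD2, CMPK2, ISG15 itself, OAS2, OAS3, OASL and the 5 listed IFI genes, while OAS1 was not called and UBE2L6, the ISG15-conjugating enzyme, was called lower. Lower members included the membrane proteins IFITM1, IFITM2 and IFITM3, the guanylate-binding proteins, the SAMD9 pair, DTX3L, PARP14 and IRF1.

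The response elements were looked for in the promoter windows that RefSeq gives for these genes on build GRCh38.p14, from 250 bases before the start site to 50 after it. Windows were matched for 45 of the 58 members. Some members with large changes, among them OASL, MX2 and USP18 (higher) and IFITM2 and GBP2 (lower), had no window. The stretches below, 59 bases each, are shown because the same ISRE core, GAAANNGAA on either strand, stood before members that moved in opposite directions. Capitals mark a single copy of the motif, and the stretches of ISG15, IFI6 and IFITM3 hold further copies of the core that are left in lower case. Each stretch is written along the strand of its gene and lies wholly before the start site. The first 4 belong to members that were higher in si-YTHDF2, the next 3 to members that were lower, and the last shows the GAS motif, TTCNNNGAA, before IRF1, which was lower. In GBP1 the core lies on the opposite strand and reads as its reverse complement.
ISG15, chr1:1013371-1013429 on the plus strand: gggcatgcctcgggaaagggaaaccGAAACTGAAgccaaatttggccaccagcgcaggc
RSAD2, chr2:6865781-6865839 on the plus strand: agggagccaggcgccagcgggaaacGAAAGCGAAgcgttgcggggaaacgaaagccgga
OAS3, chr12:112938306-112938364 on the plus strand: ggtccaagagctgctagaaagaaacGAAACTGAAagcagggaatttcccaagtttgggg
IFI6, chr1:27672252-27672310 on the minus strand: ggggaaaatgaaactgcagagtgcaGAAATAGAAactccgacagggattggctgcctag
SAMD9, chr7:93118082-93118140 on the minus strand: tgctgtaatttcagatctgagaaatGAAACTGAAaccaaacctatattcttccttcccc
IFITM3, chr11:320862-320920 on the minus strand: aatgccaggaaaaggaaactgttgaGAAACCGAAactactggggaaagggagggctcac
GBP1, chr1:89065301-89065359 on the minus strand: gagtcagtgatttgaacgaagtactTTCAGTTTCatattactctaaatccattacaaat
IRF1, chr5:132490864-132490922 on the minus strand: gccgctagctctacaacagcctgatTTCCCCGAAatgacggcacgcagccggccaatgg

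An ISRE core was present in 15 of 21 windows of higher members (71.4%), in 8 of 12 windows of lower members (66.7%) and in 5 of 12 windows of members that were not called (41.7%), against 2264 of all 27305 windows (8.29%). The GAS motif was present in 6 of 21, 5 of 12 and 2 of 12 windows of the same sets (28.6%, 41.7% and 16.7%), against 2152 of all 27305 (7.88%). Within the matched members the ISRE core was thus present in the windows of similar shares of those that rose and those that fell. In some windows, as in MX1 and GBP3, the core lay after the start site. Some windows held the 2 motifs in overlapping positions, as in IFITM1, BST2, IFI27 and EPSTI1. Where RefSeq lists several start sites for a gene the first listed was used; with any listed window counted, the ISRE shares were 16 of 21, 8 of 12 and 6 of 12, against 2693 of 27305 (9.86%). A match is a run of letters and not a measured binding site, and the shares are given with no test.

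**Figure D1:**
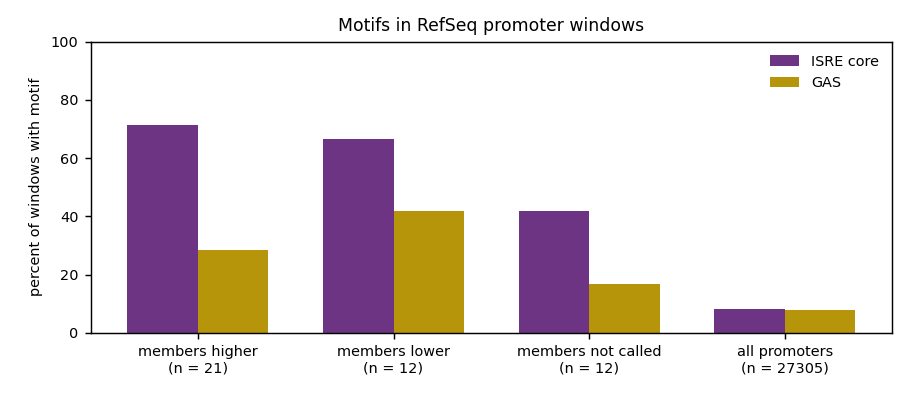
Percent of RefSeq promoter windows that hold the ISRE core or the GAS motif, for members called higher in si-YTHDF2 (21 windows), called lower (12) or not called (12), and for all 27305 windows. The ISRE bars of the higher and lower members stand at 71.4% and 66.7%, and that of all windows at 8.29%.

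The libraries held 19803707 to 21481302 counts in si-YTHDF2 and 20312740 to 22698069 in NC, of which the members took 0.725% to 0.760% in si-YTHDF2 and 0.779% to 0.793% in NC. YTHDF2 itself had 43.0, 48.4 and 43.5 CPM (counts scaled to a common library size with TMM factors) in the si-YTHDF2 libraries, against 74.6, 77.5 and 83.8 CPM in the NC libraries, so the groups did not overlap. On the log2 scale YTHDF2 differed by -0.81 ± 0.07 (SE, with an adjusted p = 4.13e-07 by edgeR). Permuting the 6 libraries (exact, two-sided) returned p = 0.1, which is the lowest value that 3 against 3 can reach. All 12 keratinocyte markers had counts in every library, with a summed level of 5364 to 5684 CPM in si-YTHDF2 and 5236 to 5607 CPM in NC. Of these 12, 2 were called higher, 4 lower and 6 not called, with log2 fold changes from -0.29 to 0.64. Among all genes tested 26.1% were higher and 25.2% lower. KRT14 averaged only 2.00 CPM in si-YTHDF2 and 2.22 CPM in NC, and KRT1 ran from 5 to 888 counts among the NC libraries. Markers of blood cells moved with the groups. The 14 erythroid markers summed to 1544 to 1775 CPM in si-YTHDF2 and 55.7 to 58.2 CPM in NC. All 7 that passed the filter were called higher, but ALAS2, HEMGN, SLC4A1 and CA1 had at most 5 counts in any NC library. Those markers could pass only through the si-YTHDF2 libraries, so the filter fixed their direction. HBB, HBA1 and HBA2 could pass in both groups, with 81 to 1008 counts in an NC library. HBB made up most of the sum, averaging 1412 CPM in si-YTHDF2 and 46.6 CPM in NC. The 6 platelet markers summed to 10.8 to 12.6 CPM in si-YTHDF2 and 0.542 to 0.778 CPM in NC, and the 25 leukocyte markers to 26.9 to 27.8 CPM in si-YTHDF2 and 6.06 to 7.52 CPM in NC. Of the 25 leukocyte markers 10 passed the low-count filter, 8 of them higher, 1 (CD14) lower and 1 (CSF1R) not called. The shares over all genes were 26.1% higher and 25.2% lower. Of the higher ones, FCN1, ITGAM, CSF3R, FCGR3A, PTPRC, LYZ and CD53 also passed only through si-YTHDF2, so the filter fixed their direction. Their highest count in an NC library ran from 1 (FCN1) to 13 (LYZ). CORO1A, also called higher, had 31, 30 and 27 counts in the NC libraries. PTPRC, the pan-leukocyte CD45, averaged 4.30 CPM in si-YTHDF2 and 0.235 CPM in NC, where it had at most 6 counts in a library. NKG7 had 0 counts in every NC library and 3 counts over the si-YTHDF2 libraries together. Where the transcripts of these blood cell markers came from, and their part in the member changes below, was not tested. In bulk RNA a change in the number of cells of a type and a change in RNA per cell cannot be told apart.

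All 58 members passed the low-count filter and had a count in every library. Means below are given with the SD over the 3 libraries of a group. The 43 called members made up 74.1% of them, where 51.2% of all genes tested were called. Higher calls covered 46.6% of the members and 26.1% of all genes, and lower calls 27.6% of the members and 25.2% of all genes. A log2 fold change of at least 1 was reached by 14 higher members (24.1%, against 3.53% of all genes) and a value of -1 or less by 6 lower members (10.3%, against 3.86%). The si-YTHDF2 and NC libraries did not overlap in 42 members (72.4%, against 58.5% of all genes), and each of these was called. The median log2 fold change was 0.17 over the members and 0.01 over all genes. Scaled by library totals alone, 28 members were higher and 12 lower, and 3860 genes were higher and 2433 lower in all, where TMM scaling gave 3199 and 3086. The sum over the 58 members was nevertheless lower in si-YTHDF2, at 7139 to 7328 CPM, than in NC, at 7995 to 8186 CPM. IFITM3 and SAMD9, which are among the most abundant members, were among those that fell.

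**Figure D2:**
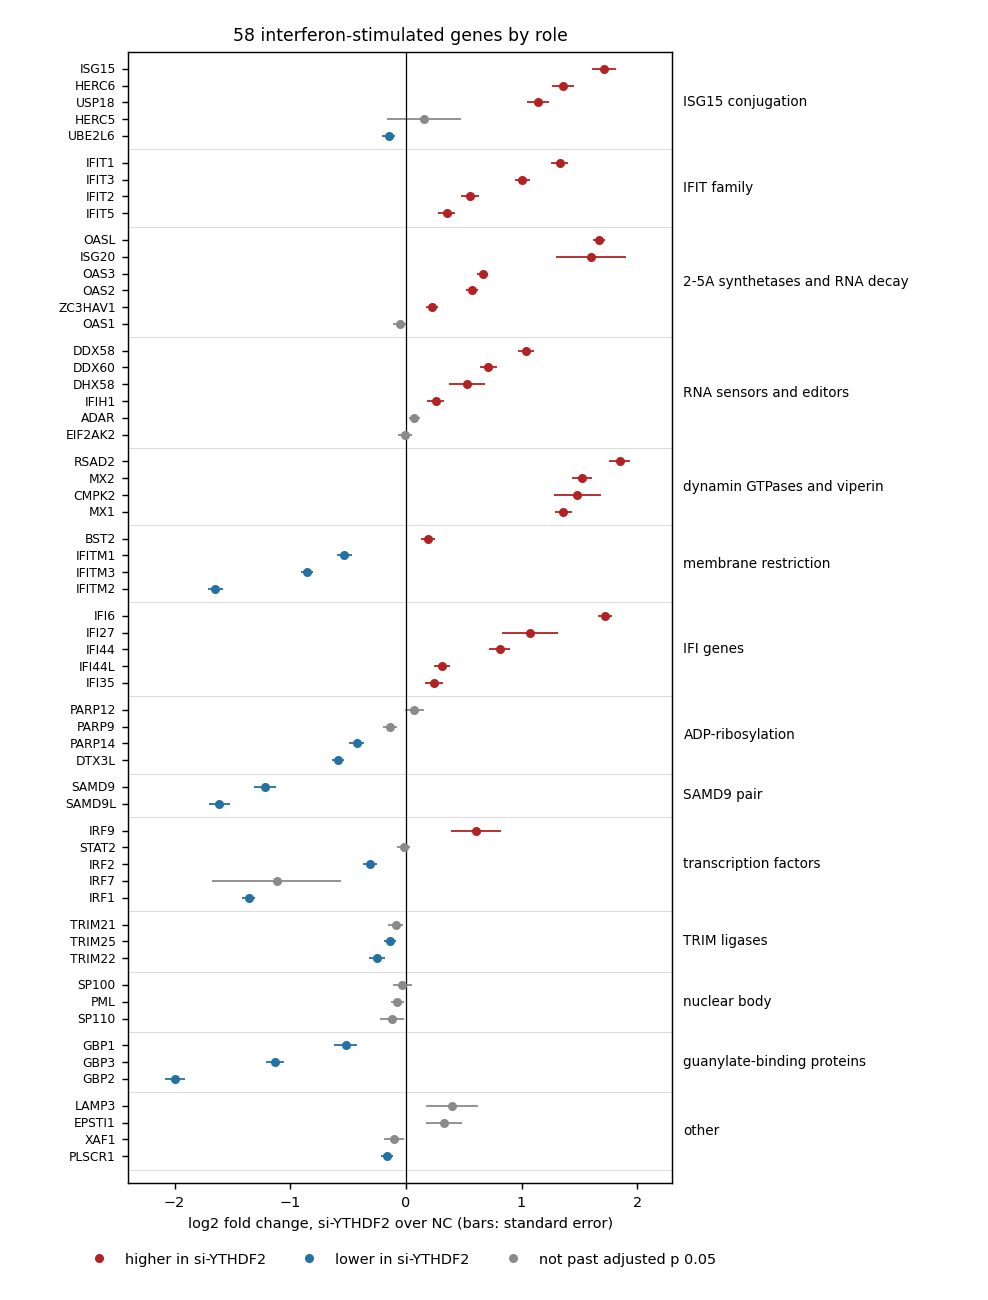
Log2 fold change (si-YTHDF2 over NC, bars are the standard error) of all 58 members, grouped by role, in red where called higher, blue where called lower and grey where not called at an adjusted p of 0.05. RSAD2 stands farthest right at 1.85 and GBP2 farthest left at -1.996.

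The enzymes that act on nucleotides and the MX proteins rose, all 4 of them. RSAD2 (ENSG00000134321), which encodes viperin, a radical SAM enzyme that makes a chain-terminating ribonucleotide, had 29.3, 28.5 and 26.9 CPM in the si-YTHDF2 libraries, against 8.23, 7.82 and 7.46 CPM in the NC libraries. For RSAD2 the log2 fold change was 1.85 ± 0.09 (SE; edgeR, adjusted p = 2.86e-09). CMPK2, a nucleotide kinase encoded head to head with RSAD2 that supplies its substrate, had 6.10, 7.66 and 6.84 CPM in the si-YTHDF2 libraries, against 2.93, 2.54 and 1.90 CPM in the NC libraries. For CMPK2 the log2 fold change was 1.48 ± 0.20 (SE; edgeR, adjusted p = 4.09e-05). The dynamin-like GTPases followed: MX1, which traps viral ribonucleoproteins in the cytoplasm, had 57.6, 61.7 and 66.7 CPM in the si-YTHDF2 libraries, against 23.7, 24.6 and 24.0 CPM in the NC libraries. For MX1 the log2 fold change was 1.36 ± 0.07 (SE; edgeR, adjusted p = 5.39e-09). MX2, which acts at the nuclear envelope, had 38.5, 45.2 and 43.2 CPM in the si-YTHDF2 libraries, against 13.8, 15.4 and 15.1 CPM in the NC libraries. For MX2 the log2 fold change was 1.52 ± 0.09 (SE; edgeR, adjusted p = 1.12e-08). In each of these 4 genes the lowest si-YTHDF2 library lay above the highest NC library.

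Of ISG15 and the 4 proteins that attach or remove it, 3 rose, 1 fell and 1 was not called. ISG15 (ENSG00000187608), a ubiquitin-like modifier, had 32.0, 36.2 and 37.0 CPM in the si-YTHDF2 libraries, against 11.4, 9.30 and 11.3 CPM in the NC libraries. For ISG15 the log2 fold change was 1.71 ± 0.10 (SE; edgeR, adjusted p = 1.2e-08). USP18, the protease that strips ISG15 from its targets and restrains the receptor, had 22.8, 21.1 and 21.8 CPM in the si-YTHDF2 libraries, against 9.70, 10.6 and 9.54 CPM in the NC libraries. For USP18 the log2 fold change was 1.14 ± 0.10 (SE; edgeR, adjusted p = 4.24e-07). HERC6, the ISG15 ligase in mouse, had 30.8, 26.1 and 26.6 CPM in the si-YTHDF2 libraries, against 11.2, 10.1 and 11.3 CPM in the NC libraries. For HERC6 the log2 fold change was 1.36 ± 0.10 (SE; edgeR, adjusted p = 9.99e-08). The groups stood clear of each other in all 3 genes. HERC5, the human ISG15 ligase, averaged 1.26 ± 0.216 CPM in si-YTHDF2 and 1.13 ± 0.161 CPM in NC and was not called (log2 fold change 0.15 ± 0.32, SE; edgeR, adjusted p = 0.715). The conjugating enzyme UBE2L6 was abundant, at 334 ± 23.4 CPM in si-YTHDF2 and 371 ± 18.9 CPM in NC, and its libraries overlapped between the groups; it was called lower (log2 fold change -0.15 ± 0.06, SE; edgeR, adjusted p = 0.0488) near the threshold. That call was lost without si-YTHDF2 replicate 1 (-0.09, adjusted p = 0.103), si-YTHDF2 replicate 2 (0.0944), NC replicate 2 (0.203) or NC replicate 3 (0.0797) and with library totals (0.207, the highest of 14 alternatives, where the lowest was 0.0235).

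All 4 IFIT genes, which encode proteins that bind viral RNA ends and block its translation, rose. IFIT1 had 178, 150.2 and 148 CPM in the si-YTHDF2 libraries, against 62.0, 67.8 and 59.9 CPM in the NC libraries. For IFIT1 the log2 fold change was 1.33 ± 0.08 (SE; edgeR, adjusted p = 9.73e-09). IFIT3, the partner that stabilises IFIT1, had 322, 278 and 275 CPM in the si-YTHDF2 libraries, against 151, 142 and 142 CPM in the NC libraries. For IFIT3 the log2 fold change was 1.01 ± 0.06 (SE; edgeR, adjusted p = 3.01e-08). IFIT2 averaged 146 ± 18.9 CPM in si-YTHDF2 and 99.6 ± 3.14 CPM in NC (log2 fold change 0.56) and IFIT5 averaged 76.5 ± 7.45 CPM in si-YTHDF2 and 60.0 ± 2.35 CPM in NC (0.35; edgeR, adjusted p = 0.000992). In each of the 4 the si-YTHDF2 replicate 1 library was the highest of all 6, and the groups did not overlap.

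The oligoadenylate synthetases make the second messenger that activates RNase L, and of the 6 synthetase and RNA decay members 5 rose and 1 was not called. OASL (ENSG00000135114), a relative without synthetase activity that enhances RIG-I signaling, had 186, 189 and 184 CPM in the si-YTHDF2 libraries, against 57.3, 59.6 and 58.1 CPM in the NC libraries. For OASL the log2 fold change was 1.67 ± 0.05 (SE; edgeR, adjusted p = 2.39e-11). Its si-YTHDF2 libraries lay within a few CPM of each other. OAS3 averaged 565 ± 23.5 CPM in si-YTHDF2 and 357 ± 5.92 CPM in NC (log2 fold change 0.66) and OAS2 averaged 159 ± 5.20 CPM in si-YTHDF2 and 107 ± 3.47 CPM in NC (0.57), and both were called higher. OAS1 averaged 107 ± 4.90 CPM in si-YTHDF2 and 110.4 ± 6.54 CPM in NC, overlapped between groups and was not called (log2 fold change -0.05 ± 0.06, SE; edgeR, adjusted p = 0.501), with 0.01 under library totals. OAS1, OAS3 and OAS2 are neighbours on chromosome 12. Of the members that degrade RNA, the exonuclease gene ISG20 had 3.10, 4.34 and 3.65 CPM in the si-YTHDF2 libraries, against 1.23, 0.711 and 1.67 CPM in the NC libraries. For ISG20 the log2 fold change was 1.60 ± 0.30 (SE; edgeR, adjusted p = 0.000625), at a low level in both groups. ZC3HAV1, the zinc finger antiviral protein, averaged 174 ± 5.55 CPM in si-YTHDF2 and 148 ± 3.65 CPM in NC (log2 fold change 0.23; edgeR, adjusted p = 0.00218).

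The 4 RNA sensors and helicases rose, and the kinase and the editing enzyme were not called. DDX58, which encodes RIG-I, the sensor of uncapped RNA ends, had 63.7, 58.6 and 64.7 CPM in the si-YTHDF2 libraries, against 28.9, 31.9 and 30.6 CPM in the NC libraries. For DDX58 the log2 fold change was 1.03 ± 0.07 (SE; edgeR, adjusted p = 4.42e-08). DDX60, a helicase of the same pathway, averaged 121 ± 13.5 CPM in si-YTHDF2 and 73.8 ± 1.91 CPM in NC (log2 fold change 0.71). DHX58, which encodes the regulatory helicase LGP2, averaged 9.24 ± 1.08 CPM in si-YTHDF2 and 6.40 ± 0.964 CPM in NC (0.53; edgeR, adjusted p = 0.0109), a call lost without si-YTHDF2 replicate 2 (adjusted p = 0.0504, the highest over 14 alternatives, which went down to 0.00452). IFIH1, which encodes MDA5, the sensor of long double-stranded RNA, averaged 37.0 ± 1.85 CPM in si-YTHDF2 and 31.0 ± 1.42 CPM in NC (0.26; edgeR, adjusted p = 0.0114); without NC replicate 3 it was not called (adjusted p = 0.0637, the highest over 14 alternatives, which went down to 0.00367). EIF2AK2, the kinase PKR that stops translation on double-stranded RNA, averaged 363 ± 32.0 CPM in si-YTHDF2 and 366 ± 1.98 CPM in NC. For EIF2AK2 the log2 fold change was -0.01 ± 0.06 (SE; edgeR, adjusted p = 0.897). ADAR, the enzyme that edits adenosine in double-stranded RNA, averaged 641 ± 19.1 CPM in si-YTHDF2 and 609.5 ± 9.76 CPM in NC. For ADAR the log2 fold change was 0.07 ± 0.05 (SE; edgeR, adjusted p = 0.202); it was called higher without si-YTHDF2 replicate 1 (adjusted p = 0.0218) and with library totals (0.0144, the lowest over 14 alternatives, which reached 0.410).

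The 5 listed IFI members rose, with log2 fold changes from 0.24 to 1.72. IFI6 (ENSG00000126709), a small membrane protein of the endoplasmic reticulum and mitochondria, had 99.7, 104 and 107 CPM in the si-YTHDF2 libraries, against 30.6, 33.7 and 30.1 CPM in the NC libraries. For IFI6 the log2 fold change was 1.72 ± 0.06 (SE; edgeR, adjusted p = 1.07e-10). IFI27, a mitochondrial protein and widely used blood marker of interferon exposure, had only 3.95, 5.58 and 3.60 CPM in the si-YTHDF2 libraries, against 2.42, 1.78 and 2.03 CPM in the NC libraries. For IFI27 the log2 fold change was 1.07 ± 0.24 (SE; edgeR, adjusted p = 0.00232). IFI44 averaged 54.6 ± 6.75 CPM in si-YTHDF2 and 31.1 ± 1.86 CPM in NC (log2 fold change 0.81), and its neighbour IFI44L averaged 42.6 ± 0.949 CPM in si-YTHDF2 and 34.3 ± 1.11 CPM in NC (0.31). IFI35 averaged 39.3 ± 2.50 CPM in si-YTHDF2 and 33.2 ± 2.21 CPM in NC (0.24; edgeR, adjusted p = 0.0185), and was not called without si-YTHDF2 replicate 2 (0.0893), NC replicate 1 (0.0672) or NC replicate 3 (0.0902, the highest over 14 alternatives, which went down to 0.00455). IFI16, a DNA sensor outside the 58 that was picked after its values were seen, was called lower, at 211 ± 26.3 CPM in si-YTHDF2 and 269 ± 12.4 CPM in NC. For IFI16 the log2 fold change was -0.35 ± 0.08 (SE; edgeR, adjusted p = 0.00155). IFI27 and ISG20 rest on few reads, with 14 to 53 counts in an NC library.

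**Figure D3:**
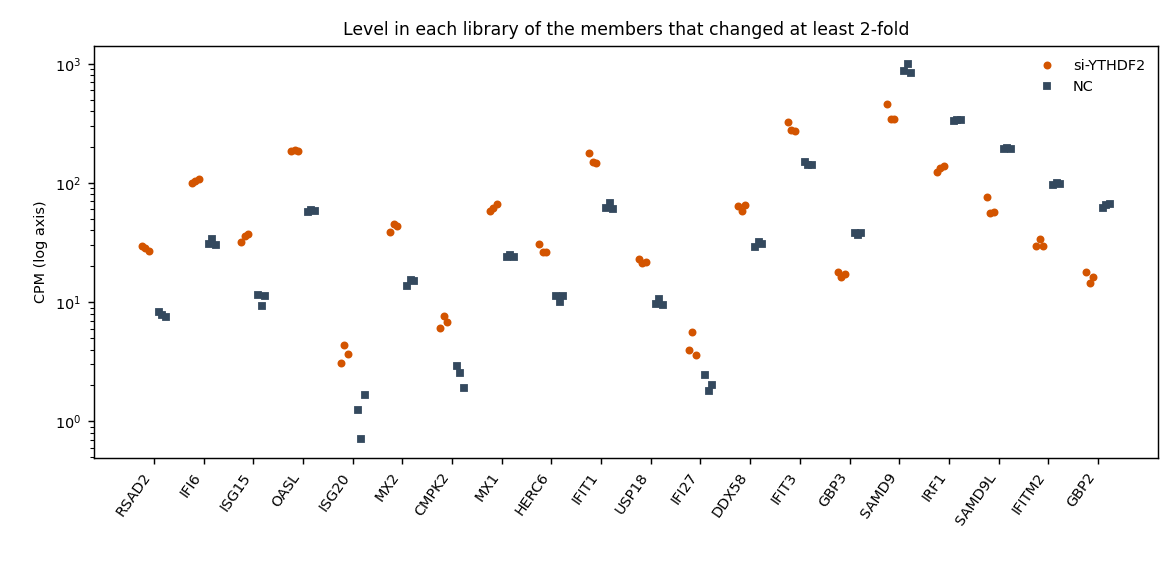
CPM on a log axis in each of the 3 si-YTHDF2 libraries (circles, left) and 3 NC libraries (squares, right) for the 20 called members with an absolute log2 fold change of at least 1 and groups that do not overlap, ordered by fold change. The 14 genes on the left stand higher in si-YTHDF2, from RSAD2 to IFIT3, and the 6 on the right, from GBP3 to GBP2, lower.

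The interferon-induced transmembrane proteins, which stop viruses from fusing with cell membranes, fell, 3 of 3. IFITM3 (ENSG00000142089), which guards endosomes and was the most abundant member in every library, averaged 691 ± 40.4 CPM in si-YTHDF2 and 1248 ± 33.4 CPM in NC. For IFITM3 the log2 fold change was -0.85 ± 0.05 (SE; edgeR, adjusted p = 1.67e-08). IFITM2 fell most, with 29.8, 33.8 and 29.8 CPM in the si-YTHDF2 libraries, against 95.6, 100.3 and 97.5 CPM in the NC libraries. For IFITM2 the log2 fold change was -1.65 ± 0.06 (SE; edgeR, adjusted p = 2.1e-10). IFITM1, which acts at the cell surface, averaged 154 ± 11.2 CPM in si-YTHDF2 and 223 ± 11.4 CPM in NC. For IFITM1 the log2 fold change was -0.53 ± 0.06 (SE; edgeR, adjusted p = 9.62e-06). The groups did not overlap in any of the 3. These genes are closely similar neighbours on chromosome 11, and the annotation gives IFITM1 and IFITM2 351 shared exon bases on the same strand, so the split of reads among the 3 is uncertain while all 3 went the same way. BST2, the tetherin that holds budding virus at the cell surface, was called higher at 112 ± 7.02 CPM in si-YTHDF2 and 98.4 ± 0.951 CPM in NC. For BST2 the log2 fold change was 0.19 ± 0.06 (SE; edgeR, adjusted p = 0.013), a call lost without si-YTHDF2 replicate 3 (adjusted p = 0.0726, the highest over 14 alternatives, which went down to 0.00184) or NC replicate 2 (0.0523).

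Guanylate-binding proteins, large GTPases that are typical targets of interferon gamma and IRF1 and attack pathogen vacuoles, also fell, all 3 of them. GBP2 (ENSG00000162645) showed the largest decrease of any member, with 18.0, 14.4 and 16.1 CPM in the si-YTHDF2 libraries, against 62.0, 65.8 and 66.2 CPM in the NC libraries. For GBP2 the log2 fold change was -1.996 ± 0.08 (SE; edgeR, adjusted p = 4.17e-10). GBP3 had 17.9, 16.2 and 17.2 CPM in the si-YTHDF2 libraries, against 37.8, 36.4 and 38.2 CPM in the NC libraries. For GBP3 the log2 fold change was -1.13 ± 0.08 (SE; edgeR, adjusted p = 5.92e-08). GBP1 averaged 22.7 ± 3.03 CPM in si-YTHDF2 and 32.7 ± 2.39 CPM in NC. For GBP1 the log2 fold change was -0.52 ± 0.10 (SE; edgeR, adjusted p = 0.000698). Every si-YTHDF2 library lay below every NC library in each gene. GBP2 shares 621 exon bases on the same strand with GBP7, so a part of its count could belong to that gene.

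SAMD9 and SAMD9L, adjacent genes on chromosome 7 whose products restrict poxviruses and slow translation and growth, fell. SAMD9 (ENSG00000205413) had 461, 345 and 347 CPM in the si-YTHDF2 libraries, against 864, 987 and 838 CPM in the NC libraries. For SAMD9 the log2 fold change was -1.22 ± 0.10 (SE; edgeR, adjusted p = 2.68e-07). SAMD9L had 76.0, 56.1 and 57.4 CPM in the si-YTHDF2 libraries, against 192, 197 and 191 CPM in the NC libraries. For SAMD9L the log2 fold change was -1.61 ± 0.09 (SE; edgeR, adjusted p = 9.73e-09). In both genes si-YTHDF2 replicate 1 lay above replicates 2 and 3 and yet far below every NC library.

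Of the 4 ADP-ribosylation members, 2 fell and 2 were not called. DTX3L, a ubiquitin ligase that works as a complex with PARP9, had 233, 211 and 209 CPM in the si-YTHDF2 libraries, against 329, 319 and 333 CPM in the NC libraries. For DTX3L the log2 fold change was -0.59 ± 0.05 (SE; edgeR, adjusted p = 1.11e-06). PARP14, a mono-ADP-ribosyltransferase, averaged 291 ± 30.5 CPM in si-YTHDF2 and 392 ± 9.52 CPM in NC. For PARP14 the log2 fold change was -0.43 ± 0.07 (SE; edgeR, adjusted p = 0.000115). PARP9 averaged 111 ± 8.88 CPM in si-YTHDF2 and 122 ± 3.32 CPM in NC and was not called (log2 fold change -0.14 ± 0.06, SE; edgeR, adjusted p = 0.0846); it was called lower without si-YTHDF2 replicate 1 (-0.20, adjusted p = 0.00195, the lowest over 14 alternatives, which reached 0.408). PARP12, which inhibits viral translation, averaged 40.2 ± 3.39 CPM in si-YTHDF2 and 38.2 ± 2.89 CPM in NC and was not called (log2 fold change 0.07 ± 0.08, SE; edgeR, adjusted p = 0.496). PARP9 and DTX3L share 217 exon bases on opposite strands, and it is not known whether strand was used in counting, so their reads there cannot be told apart.

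Of the 5 transcription factors, 1 rose, 2 fell and 2 were not called. STAT2, a subunit of the complex that binds the ISRE, had 172, 184 and 192 CPM in the si-YTHDF2 libraries, against 188, 179 and 188 CPM in the NC libraries, with overlapping groups (log2 fold change -0.02 ± 0.05, SE; edgeR, adjusted p = 0.804), and 0.05 under library totals. IRF9, its DNA-binding partner, had 5.07, 3.88 and 6.54 CPM in the si-YTHDF2 libraries, against 3.16, 3.25 and 3.75 CPM in the NC libraries. For IRF9 the log2 fold change was 0.60 ± 0.22 (SE; edgeR, adjusted p = 0.031). The IRF9 rise rested on few counts and was not called without si-YTHDF2 replicate 3 (0.40, adjusted p = 0.172, the highest over 14 alternatives, which went down to 0.0101), NC replicate 1 (0.0780) or NC replicate 2 (0.0775), and 48.4% of its exon bases lie in a second gene model on the same strand. IRF7, which amplifies interferon production, had 2.56, 0.646 and 2.95 CPM in the si-YTHDF2 libraries, against 8.46, 3.56 and 1.31 CPM in the NC libraries. Its NC libraries spread widely, the groups overlapped and it was not called (log2 fold change -1.12 ± 0.56, SE; edgeR, adjusted p = 0.112). IRF7 was called lower without NC replicate 3 (-1.56, adjusted p = 0.0134, the lowest over 14 alternatives, which reached 0.720) and with no low-count filter (0.0460). Without NC replicate 1 its log2 fold change was only -0.24 (adjusted p = 0.720). IRF1 (ENSG00000125347), the factor induced by interferon gamma that drives many GBP genes, had 123, 133 and 138 CPM in the si-YTHDF2 libraries, against 332, 340.5 and 339.6 CPM in the NC libraries. For IRF1 the log2 fold change was -1.36 ± 0.05 (SE; edgeR, adjusted p = 2.69e-10), and every si-YTHDF2 library lay below every NC library. IRF2, which competes with IRF1 for its sites, had 45.6, 43.7 and 44.1 CPM in the si-YTHDF2 libraries, against 54.7, 56.6 and 54.3 CPM in the NC libraries. For IRF2 the log2 fold change was -0.31 ± 0.06 (SE; edgeR, adjusted p = 0.000686), also without overlap.

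Of the 3 TRIM ligases, 2 fell slightly. TRIM22, a ubiquitin ligase that restrains several viruses and shares 642 exon bases with a neighbour on the same strand, had 145, 119 and 128 CPM in the si-YTHDF2 libraries, against 162, 149.9 and 155 CPM in the NC libraries. For TRIM22 the log2 fold change was -0.25 ± 0.07 (SE; edgeR, adjusted p = 0.00753), a call lost with library totals (adjusted p = 0.0551, the highest over 14 alternatives, which went down to 7.1e-05). TRIM25, the ligase that activates RIG-I, averaged 199.9 ± 4.83 CPM in si-YTHDF2 and 219.7 ± 5.23 CPM in NC. For TRIM25 the log2 fold change was -0.14 ± 0.05 (SE; edgeR, adjusted p = 0.0314); it was not called without si-YTHDF2 replicate 2 (0.0838), NC replicate 1 (0.121) or NC replicate 3 (0.0981) or with library totals (0.232, the highest over 14 alternatives, which went down to 0.0136). TRIM21, a cytosolic antibody receptor, averaged 40.6 ± 1.78 CPM in si-YTHDF2 and 43.2 ± 1.78 CPM in NC and was not called (log2 fold change -0.09 ± 0.07, SE; edgeR, adjusted p = 0.291).

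None of the nuclear body members was called (0 of 3 by edgeR, 0 at an unadjusted p under 0.05, and 0 by DESeq2 or limma-voom). PML, the scaffold of the bodies, had 167, 192 and 185 CPM in the si-YTHDF2 libraries, against 190.2, 190.3 and 193 CPM in the NC libraries. For PML the log2 fold change was -0.08 ± 0.06 (SE; edgeR, adjusted p = 0.291). SP100 averaged 34.3 ± 2.47 CPM in si-YTHDF2 and 35.0 ± 2.06 CPM in NC (log2 fold change -0.03, and 0.04 with library totals) and SP110 averaged 12.1 ± 0.343 CPM in si-YTHDF2 and 13.1 ± 0.799 CPM in NC (-0.12). PLSCR1, a phospholipid scramblase that blocks virus entry, had 138, 130.1 and 133 CPM in the si-YTHDF2 libraries, against 152, 146 and 152 CPM in the NC libraries. For PLSCR1 the log2 fold change was -0.16 ± 0.05 (SE; edgeR, adjusted p = 0.0156), a call lost without si-YTHDF2 replicate 2 (0.0709), NC replicate 1 (0.0643) or NC replicate 3 (0.0621) and with library totals (0.139, the highest over 14 alternatives, which went down to 0.00209). XAF1, an antagonist of the apoptosis inhibitor XIAP, averaged 39.7 ± 4.45 CPM in si-YTHDF2 and 42.5 ± 2.54 CPM in NC and was not called (-0.10). EPSTI1 averaged 13.0 ± 1.71 CPM in si-YTHDF2 and 10.3 ± 2.21 CPM in NC and LAMP3, a lysosomal membrane protein of mature dendritic cells, 3.93 ± 0.751 CPM in si-YTHDF2 and 2.99 ± 0.450 CPM in NC; neither was called (0.33 and 0.40), though EPSTI1 was without NC replicate 3 (0.50, adjusted p = 0.0192, the lowest over 14 alternatives, which reached 0.328).

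Levels per kilobase of annotated exon placed IFITM3 first in both groups, at 513 CPM per kilobase in si-YTHDF2 and 926 in NC. UBE2L6 (152), IFITM1 (143) and IFI6 (119.8) followed in si-YTHDF2, whereas in NC IFITM1 (206), UBE2L6 (169) and SAMD9 (131) came next and IFI6 stood at 36.3. The lowest were HERC5, at 0.264 in si-YTHDF2 and 0.238 in NC, and ISG20, at 0.502 in si-YTHDF2 and 0.164 in NC. ISG15 stood at 37.2 in si-YTHDF2, against 11.3 in NC, and OASL at 52.9 in si-YTHDF2, against 16.6 in NC.

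Members that lie next to each other changed in the same direction wherever more than a single call was made. At a distance of at most 200000 bases, 28 members formed 11 loci, of which 10 held calls in 1 direction only, 0 held calls in both and 1 (SP110 with SP100) held none. HERC6 with HERC5, counted among the 10, held a single call and could not disagree. The same count was not made for neighbouring genes in general, so how often these agree is not known here. The IFIT locus spans chr10:89283694-89421001 in GRCh38, and its 4 members rose. The IFITM locus, chr11:307631-327537, and the GBP locus, chr1:89006666-89150456, each held 3 members that fell. RSAD2 with CMPK2 on chromosome 2 and MX1 with MX2 on chromosome 21 rose in pairs, and SAMD9 with SAMD9L fell as a pair. Neighbouring families share sequence as well as position, and for each such family the treatment of shared reads by the authors is unknown.

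Within si-YTHDF2, replicate 1 stood somewhat apart from replicates 2 and 3. Of the 58 members it was the highest si-YTHDF2 library in 27 and the lowest in 23, leaving 8 in which it was in the middle; replicates 2 and 3 were highest in 15 and 16. In NC each library was the highest in 18 to 21 members. Across all genes chi-square per gene, a measure of difference beyond counting error, was 12.7 and 14.1 between replicate 1 and the others of si-YTHDF2 and 3.74 between replicates 2 and 3, against 5.08 to 5.79 within NC and 87.5 to 98.1 between groups. Without si-YTHDF2 replicate 1, 28 members were higher and 16 lower.

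**Figure D4:**
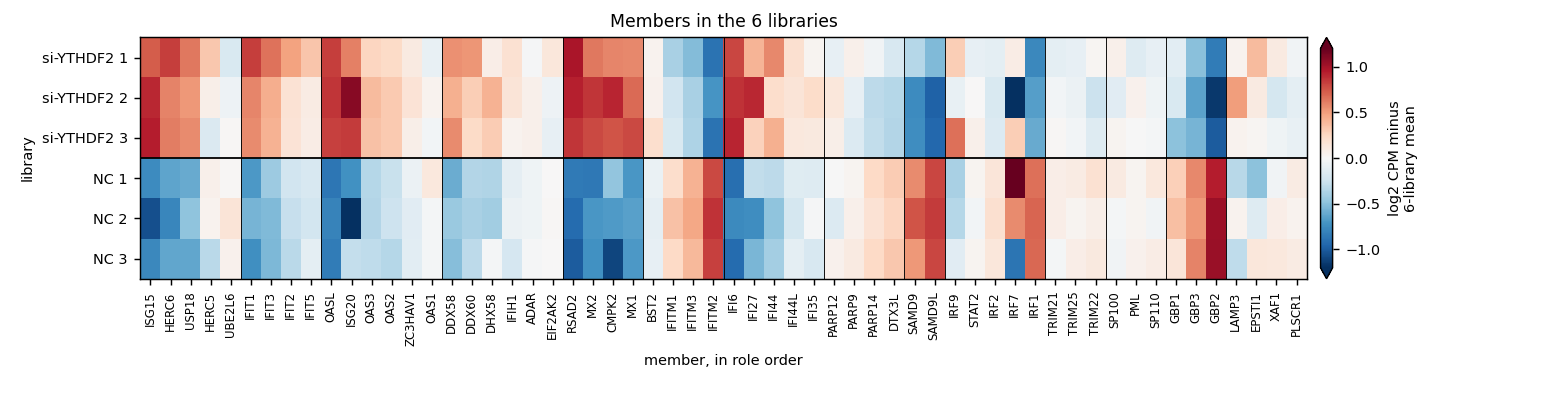
Log2 CPM of each member minus its mean over the 6 libraries, with si-YTHDF2 libraries in the upper rows, NC libraries in the lower rows and members in role order. Red blocks in the si-YTHDF2 rows cover most of the ISG15, IFIT, OAS, sensor, MX and IFI genes, and blue blocks cover the IFITM genes, the SAMD9 pair, IRF1 and the GBP genes.

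Other genes of the pathway were examined as 5 lists chosen by role. Only 6 of 15 listed ligand genes were among the genes counted, and all 6 lay below the low-count filter. The others, IFNK and the listed IFNA genes among them, had no counts given, so their level is not known. IFNB1, which encodes interferon beta, had 1, 0 and 0 counts in si-YTHDF2 and 0 in each NC library. There, about 3 counts would be the limit that a count of 0 allows. IFNG had 1, 1 and 0 in si-YTHDF2 and 0 in each NC library, and IFNE had 2, 5 and 7 in si-YTHDF2 and 5, 2 and 5 in NC. The lambda genes IFNL1, IFNL2 and IFNL3 had at most 4 counts in any library. Interferon made elsewhere, or present as protein, is not seen by RNA counts of these cells.

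Of 10 receptors and transducers tested, 1 was higher, 5 were lower and 4 were not called, beside the 26.1% higher and 25.2% lower among all genes. JAK1, the kinase of all interferon receptors, averaged 87.0 ± 1.02 CPM in si-YTHDF2 and 117 ± 4.72 CPM in NC. For JAK1 the log2 fold change was -0.43 ± 0.05 (SE; edgeR, adjusted p = 1.82e-05). IFNGR1, the ligand-binding chain of the gamma receptor, averaged 54.6 ± 5.02 CPM in si-YTHDF2 and 71.0 ± 4.22 CPM in NC (log2 fold change -0.38), and STAT3 averaged 189.8 ± 7.66 CPM in si-YTHDF2 and 228 ± 6.77 CPM in NC (-0.27), both called lower.

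Of 15 sensing genes upstream of interferon, 2 were higher, 7 lower and 6 not called, beside 26.1% higher and 25.2% lower among all genes. TMEM173, which encodes STING, the adaptor for cytosolic DNA, averaged 15.3 ± 0.661 CPM in si-YTHDF2 and 26.8 ± 0.450 CPM in NC. For TMEM173 the log2 fold change was -0.81 ± 0.08 (SE; edgeR, adjusted p = 2.41e-06). TLR3, the endosomal receptor for double-stranded RNA, averaged 24.7 ± 4.71 CPM in si-YTHDF2 and 42.8 ± 1.96 CPM in NC. For TLR3 the log2 fold change was -0.79 ± 0.11 (SE; edgeR, adjusted p = 5.2e-05). The signaling ligase TRAF6 fell (log2 fold change -0.45), and TRAF3, which links RIG-I signaling to interferon induction, rose (0.54; edgeR, adjusted p = 0.000123). Of 11 restrainers of the pathway, 5 were higher, 5 lower and 1 not called, beside the same 26.1% and 25.2% of all genes. SOCS3, an inhibitor of JAK signaling, averaged 11.0 ± 1.89 CPM in si-YTHDF2 and 33.4 ± 1.44 CPM in NC. For SOCS3 the log2 fold change was -1.60 ± 0.11 (SE; edgeR, adjusted p = 6.74e-08), and the phosphatase gene PTPN6 fell too (-0.39), while PIAS2 (0.61) and the phosphatase gene PTPN1 (0.46) rose.

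Of 33 further interferon-induced genes tested outside the 58, 5 were higher, 14 lower and 14 not called, with a median log2 fold change of -0.11. Over all genes tested 26.1% were called higher and 25.2% lower, with a median of 0.01. Whether this list differs from the members was not tested. TNFSF10, the death ligand TRAIL, averaged 78.4 ± 7.64 CPM in si-YTHDF2 and 408 ± 8.45 CPM in NC. For TNFSF10 the log2 fold change was -2.38 ± 0.07 (SE; edgeR, adjusted p = 7.08e-12). NLRC5, the activator of MHC class I genes, rose, at 50.9 ± 1.26 CPM in si-YTHDF2 and 23.9 ± 1.48 CPM in NC. For NLRC5 the log2 fold change was 1.09 ± 0.07 (SE; edgeR, adjusted p = 4.42e-08). TRIM38 (log2 fold change -0.59) and CASP1, the inflammasome protease (-0.95), fell. The chemokines CXCL9, CXCL10, CXCL11 and CCL5, which respond strongly to interferon gamma or to sensing, had at most 12 counts in any library and lay below the filter.

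**Figure D5:**
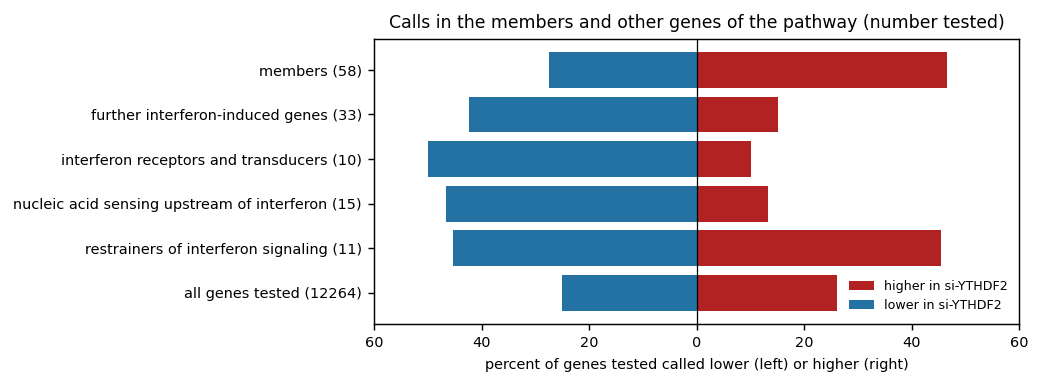
Percent of tested genes called lower (left, blue) and higher (right, red) in si-YTHDF2 for the members, for 4 lists of other pathway genes and for all genes tested, with the number tested in parentheses. The members reach 46.6% higher and 27.6% lower, beside 26.1% and 25.2% of all genes.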

How the data were processed

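RNA was measured in 3 si-YTHDF2 and 3 NC libraries, whose columns are named Input in the file headers. The authors deposited a table of raw counts per gene and library, per the file headers; the build was hg38, per the submitters' processing notes, and neither aligner, counter nor strand setting is given in the sources used here. A further 6 columns of edgeR-normalized values, per the file headers, were not used. Counts were tested with edgeR 4.0.16 in R 4.3.3 (quasi-likelihood test, TMM factors, filterByExpr, no covariate), which kept 12264 of 16551 genes, with Benjamini-Hochberg adjusted p over all genes and a threshold of 0.05. Standard errors are the size of the log2 fold change divided by the square root of F. The fit was checked on simulated data. CPM are counts over TMM-scaled library sizes, with 19803707 to 22698069 counts a library; low-count genes are the least precise. Positions and exon lengths came from GENCODE 29 (GRCh38), matched by identifier for 16546 genes, and promoter windows from RefSeq by GeneID. Alternatives were RLE factors, library totals, DESeq2 1.42.0, limma-voom 3.58.1, no filter, a minimum mean count of 50, an adjusted p under 0.01, the replicate block, and leaving out each library.

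The members and lists were chosen with earlier results of these data known. Named with full values are called members with a log2 fold change of at least 1 in size and no overlap, the transcription factors, otherwise the member of a role group with the smallest p, and the 4 genes of each pathway list with the smallest p; ligands, chemokines and markers named beside them were chosen after their values were seen. Some genes that this rule would name are not reported here.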

Additional observations from a re-analysis of the deposited data

How the results depend on the processing

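The count of higher members ran from 22 (adjusted p under 0.01) to 28 (library totals) over the 14 alternatives, and that of lower members from 12 (library totals) to 17 (no low-count filter), each within 1.5 times of 27 and 16. The median log2 fold change of the members, 0.17, came to 0.24 with library totals, to 0.20 at a mean count of at least 50, and to between 0.15 and 0.19 when a library was left out. Of the 43 called members 34 kept call and direction in every alternative, and YTHDF2 kept both, from -0.86 to -0.74. The other 9 were UBE2L6, IFIH1, DHX58, BST2, IFI35, IRF9, TRIM22, TRIM25 and PLSCR1. A change of sign was met only in 4 uncalled members. With library totals the log2 fold changes were 0.0131 for OAS1, 0.0558 for EIF2AK2, 0.0463 for STAT2 and 0.0355 for SP100. When a library was left out they ran from -0.0799 to 0.0313 for EIF2AK2, from -0.0582 to 0.0286 for STAT2 and from -0.061 to 0.0297 for SP100; the cause was not tested.

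With the replicate block 27 members were higher and 16 lower, with a median of 0.17, and 3265 and 3173 genes were called in all. Libraries with the same number correlated by 0.054, 0.052 and 0.032 in their deviations from the group means, each the best match of its library, which is a hint from the data and too weak to pair them. Depth limits ISG20 and IFI27, among the members with the fewest counts.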

Other observations

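IFNGR2, the second chain of the gamma receptor, was uneven among the si-YTHDF2 libraries, with 102, 7 and 3 counts, against 8, 8 and 9 counts in the NC libraries, and lay below the low-count filter.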
